A study of Homo sapiens with 6 samples.

Results

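The 6 solute carrier families that carry most amino acids across cell membranes, SLC1, SLC3, SLC7, SLC36, SLC38 and SLC43, were followed at the level of mRNA in MDA-MB-231 cells with and without knockdown of PUS1. Members were taken by gene symbol alone, as every gene named with 1 of these family prefixes followed by A and a number, with SLC38A2 left out. This gave 39 of the 60605 genes in the table: 7 in SLC1, 2 in SLC3, 13 in SLC7, 4 in SLC36, 10 in SLC38 and 3 in SLC43. MDA-MB-231 is an established triple-negative human breast cancer line, and PUS1 is an enzyme that turns uridine into pseudouridine in tRNAs and other RNAs. The shPUS1 cells carried a lentiviral pLKO.1 hairpin against PUS1 and the shControl cells a control hairpin, both kept under puromycin, and poly(A) RNA was sequenced from 3 libraries of each group. All 3 shPUS1 libraries carry the name of knockdown 2 in the table, and which hairpin sequence this name stands for was not worked out here. The libraries are labelled as biological replicates, but nothing says whether they came from separate infections, and p-values measure only the spread between these libraries.

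Amino acid transporters set which amino acids a cell can take up, exchange or release from its lysosomes. SLC1 members use the sodium gradient, some for glutamate and aspartate and others to exchange neutral amino acids such as glutamine. SLC3 members are not carriers themselves but heavy chains that bring SLC7 light chains to the membrane, and the remaining SLC7 members are cationic amino acid carriers for arginine and lysine. Some SLC36 members couple small amino acids to protons, and SLC38 members take up or export glutamine and other neutral amino acids. SLC43A1 and SLC43A2 let large neutral amino acids pass by facilitated diffusion. Tumor cells are known for high uptake of glutamine, leucine and cystine through SLC1A5, SLC7A5 and SLC7A11.

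PUS1 itself checked the labels. It lay at 1.13, 0.95 and 0.93 FPKM in shPUS1 replicates 1 to 3 and at 2.57, 4.66 and 2.18 FPKM in shControl replicates 1 to 3, a log2 fold change of -1.64 (SE 0.32, edgeR adjusted p = 0.0462). FPKM is the count per kilobase of a gene's exonic length scaled to the library total, and is used here for all levels. Library totals were between 14241505 and 19625998 estimated counts. The shControl replicate 2 library stood apart, with a Pearson correlation of log2 CPM (a count as a share of its library total, without gene length) of 0.9505 and 0.9521 with the other shControl libraries, against 0.981 between those and 0.9872 to 0.9906 among the shPUS1 libraries. Markers of the mesenchymal state of this line were all 6 above 1 FPKM, while ESR1, PGR, FOXA1 and CDH1 were below 1 FPKM among 8 luminal markers, as were 4 of 5 leukocyte and 3 of 3 endothelial markers. The summed level of the mesenchymal markers was 759 to 804 FPKM in shPUS1 and 949 to 1159 FPKM in shControl, and that of the luminal markers, mostly KRT19, was 57.8 to 67.7 FPKM and 69.4 to 106 FPKM, and the part of these differences in the results on transporters was not tested. The leukocyte markers summed to 2.06 to 2.91 FPKM against 1.17 to 3.04 FPKM, and the endothelial markers to 0.58 to 0.74 FPKM against 0.22 to 1.02 FPKM.

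The cells expressed 20 of the 39 transporter genes, taking a mean of at least 1 FPKM over the 6 libraries as expressed. Expressed genes were 4 of 7 in SLC1, 1 of 2 in SLC3, 5 of 13 in SLC7, 2 of 4 in SLC36, 6 of 10 in SLC38 and 2 of 3 in SLC43. A further 11 genes had counts but a mean below 1 FPKM, and 8 genes had no count in any library: SLC1A6, SLC7A3, SLC7A10, SLC7A13, SLC36A2, SLC38A3, SLC38A8 and SLC38A11. A count of 0 in all libraries allows up to 3 counts in 102548851, or 0.0293 CPM, which covers counting error only. The expressed set held 7 genes at a mean of 10 FPKM or more, from SLC1A5 at 61.4 FPKM through SLC7A5 at 53.7, SLC43A3 at 50.15, SLC38A1 at 42.6, SLC7A1 at 34.0 and SLC3A2 at 20.2 to SLC7A11 at 12.5 FPKM. Each pair of neighbours from SLC1A5 to SLC7A1 changed places in at least 1 library, so that part of the order is within the spread, while SLC7A1 was above SLC3A2 and SLC3A2 above SLC7A11 in every library. The first 6 genes of this order held 78.9 to 80.4% of the summed transporter FPKM in shPUS1 and 83.0 to 86.3% in shControl. In both groups most of this sum thus came from the glutamine exchanger, the leucine carrier and its heavy chain, SLC7A1, SLC38A1 and SLC43A3. SLC7A1 is an arginine carrier and SLC38A1 a glutamine carrier, while SLC43A3 is known as a carrier of purine nucleobases rather than of amino acids.

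**Figure D1:**
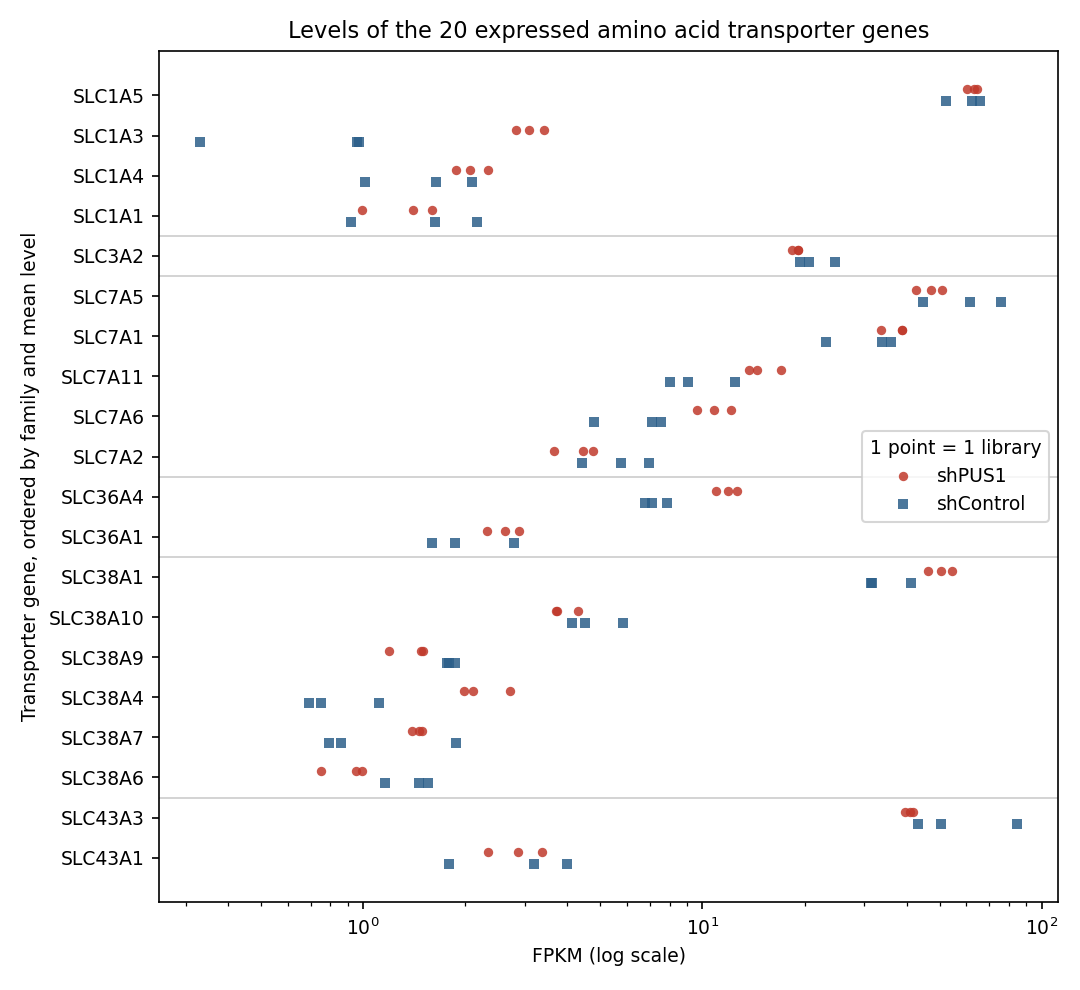
Level in FPKM, on a log scale, of the 20 expressed transporter genes in each library, with 1 circle for each of the 3 shPUS1 libraries and 1 square for each of the 3 shControl libraries, and grey lines between families. The circles lie to the right of the squares for SLC1A3, SLC7A6, SLC7A11, SLC36A4, SLC38A1 and SLC38A4. They lie to the left for SLC3A2, SLC38A6, SLC38A9 and SLC43A3. The groups lie within each other for SLC1A5, the gene with the highest mean.

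The summed level of all 39 genes was 322 ± 15.1 FPKM (SD, n = 3) in shPUS1 and 317 ± 42.9 FPKM in shControl, and the ranges overlapped (304 to 332 and 270 to 354 FPKM). The sums by family differed in direction. The SLC36 sum was 14.4 ± 0.745 FPKM in shPUS1 and 9.32 ± 0.527 FPKM in shControl, and the SLC38 sum 60.3 ± 4.496 and 44.9 ± 4.93 FPKM, with no overlap between the groups in either family. A single gene carried most of each, SLC36A4 with 11.8 of the 14.4 FPKM and SLC38A1 with 50.4 of the 60.3 FPKM in shPUS1, and of the 6 SLC38 genes tested 3 had a positive and 3 a negative log2 fold change. The SLC43 sum went the other way, at 43.9 ± 1.59 FPKM in shPUS1 and 63.2 ± 21.3 FPKM in shControl, with no overlap, where the control range of 47.09 to 87.4 FPKM was set by shControl replicate 2 at its upper end and SLC43A3 held most of the sum. The SLC3 sum, nearly all SLC3A2, was 18.9 ± 0.434 and 21.6 ± 2.73 FPKM, also lower in shPUS1 with no overlap. In CPM scaled by TMM, however, SLC3A2 overlapped between the groups, with a log2 fold change of -0.17 (edgeR adjusted p = 0.455). The SLC1 sums of 69.4 ± 2.36 and 64.3 ± 8.56 FPKM and the SLC7 sums of 115 ± 9.68 and 114 ± 25.3 FPKM overlapped. In bulk RNA, fewer cells that express a gene and less mRNA of it per cell cannot be told apart.

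Of the 39 genes, 23 had enough counts to be tested one by one. Knockdown cells had more mRNA of 3 of them and less of 0, at an edgeR adjusted p under 0.05. The 3 were the glutamate carrier SLC1A3, the proline and tryptophan carrier SLC36A4 and the neutral amino acid carrier SLC38A4. These 3 are 13.04% of the transporters tested, where 1.74% of all 14748 genes tested were called higher and 0.841% lower. The members were chosen with earlier results of these data known, so these shares are a description only. At an unadjusted p under 0.05, 6 transporters were higher and 2 lower, where 12.63% and 12.85% of all genes were. The median log2 fold change of the 23 was 0.28, with 13 positive and 10 negative values, and that of all genes tested was -0.03. On CPM scaled by TMM, the 2 groups did not overlap for 7 transporters that were higher in shPUS1 (30.43%, where 18.8% of all genes were) and 4 that were lower (17.39%, where 17.3% were). Thus the share that was lower was near that of all genes.

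The number of calls depended on the test and on single libraries. DESeq2 called 6 of the 22 transporters it gave an adjusted p higher and 1 lower, adding SLC7A6, SLC7A11 and SLC38A1 to the higher and SLC43A2 to the lower, where 7.3% and 5.58% of all genes were called. Without shControl replicate 2, edgeR called 8 of 23 higher, adding SLC36A1 and SLC38A7 to the 6 of DESeq2, and 1 lower, again SLC43A2, where 9.8% and 8.79% of all genes were called. Leaving out shPUS1 replicate 1, 2 or 3 or shControl replicate 1 left 0 transporters and between 0 and 11 of all genes past the edgeR threshold. At an unadjusted p under 0.05, 6 transporters were higher and 1 to 4 lower in these fits. The share of all genes at that unadjusted p was not counted in them, so nothing is read from these transporter counts. Without shControl replicate 3 the transporters called higher were SLC1A3, SLC7A11, SLC36A4 and SLC38A1, and 0 were called lower. Of all 15096 genes tested in that fit, 316 were called higher and 158 lower. The replicate 2 control library was the highest or lowest of the 6 for 14 of the 23 transporters (60.87%), against 66.49% of all genes tested.

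**Figure D2:**
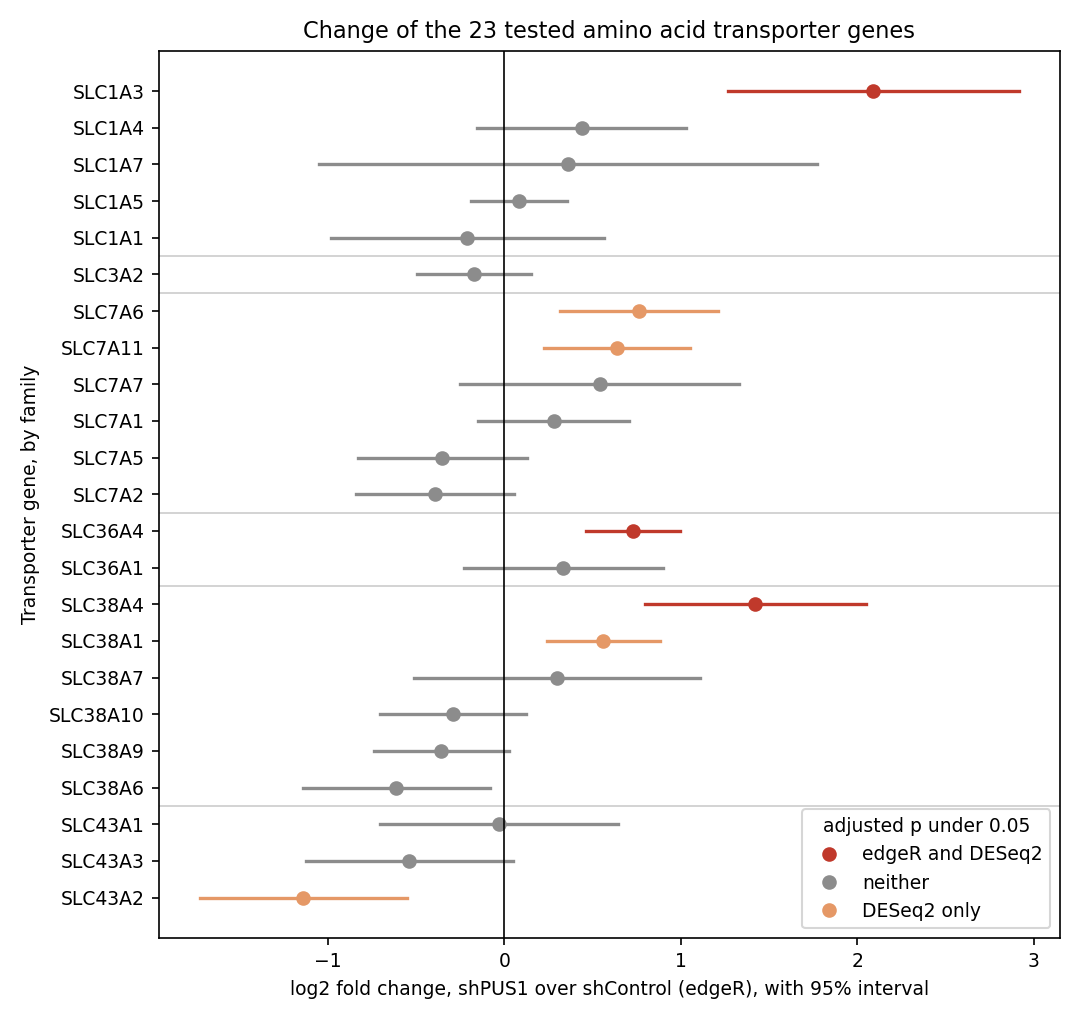
Log2 fold change of shPUS1 over shControl from edgeR, with its 95% interval as a line, for the 23 tested transporter genes grouped by family, coloured by which of edgeR and DESeq2 gave an adjusted p under 0.05. SLC1A3, SLC36A4 and SLC38A4 passed in both, SLC7A6, SLC7A11, SLC38A1 and SLC43A2 in DESeq2 only, and the intervals of SLC1A7 and SLC1A1 are among those that span 0 widely.

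Promoters were searched for the letters through which amino acid shortage and oxidative stress are known to act on transporter genes, and the stretches are shown so that searched genes that passed the test can be compared with those that did not. RefSeq promoters (GRCh38.p14), from 250 bases before to 50 bases after the RefSeq start site, were found for 30 of the 39 genes, not for SLC1A2, SLC3A1, SLC7A2, SLC7A3, SLC7A4, SLC7A11, SLC7A13, SLC38A3 and SLC43A3, which were not searched. The amino acid response element TGATGNAA, sought on both strands, was in 4 of the 30 (13.33%) and in 1003 of all 27305 promoters (3.67%). The antioxidant response element, TGACNNNGC on both strands, was in 5 of the 30 (16.67%) and in 3702 of all (13.56%). Of the genes called by edgeR, SLC1A3 had a match to the amino acid response element, and SLC36A4 and SLC38A4 had no match to either. Matches are descriptions of letters in a window and the start site used in these cells was not measured. A single RefSeq promoter was searched for each gene. For SLC1A3, SLC38A1, SLC7A5, SLC36A4 and SLC38A8, bases just after its start site were not found in a GENCODE 29 transcript of the gene. The lines below give 30 bases around a match, 5′ to 3′ on the gene's own strand, with the match in capitals. The first 4 are all the matches to the amino acid response element, at -220 in SLC1A3, -4 in SLC38A1, +8 in SLC7A1 and, on the minus strand relative to the gene, +38 in SLC3A2. The last 3 are antioxidant response element matches in light chains of SLC3A2, at -197 and -29 in SLC7A6 and at -2 in SLC7A5, and the others were in SLC3A2, SLC7A1 and SLC7A7.
SLC1A3, chr5:36596357-36596386, plus strand: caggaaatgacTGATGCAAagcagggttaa
SLC38A1, chr12:46266502-46266531, minus strand: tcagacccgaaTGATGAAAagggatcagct
SLC7A1, chr13:29595663-29595692, minus strand: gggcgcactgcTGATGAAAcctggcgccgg
SLC3A2, chr11:62881719-62881748, plus strand: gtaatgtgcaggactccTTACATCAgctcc
SLC7A6, chr16:68264319-68264348, plus strand: gctcgagcccTGACGAGGCagctgggggct
SLC7A6, chr16:68264487-68264516, plus strand: cggcggcgggTGACGTGGCggggcggggcc
SLC7A5, chr16:87869490-87869519, minus strand: gcggggttccTGACGCAGCtgcgggcggcg

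In SLC1, the glutamate and aspartate carrier SLC1A3 rose and the glutamine exchanger SLC1A5 did not pass the test. Of the genes followed here, SLC1A5 had the highest mean level over the 6 libraries. SLC1A3 (ENSG00000079215, chr5:36596588-36688334, plus strand), known from glia for clearing glutamate, was at 2.82, 3.41 and 3.09 FPKM in shPUS1 and at 0.97, 0.33 and 0.96 FPKM in shControl, in the order of the replicate numbers, which holds for all values that follow. The groups did not overlap, and the lowest shPUS1 library was above the highest control. The counts behind these levels, over an exonic length of 21227 bases, were 1091, 1328 and 1122 against 308, 136 and 290. The edgeR log2 fold change was 2.09 (SE 0.36, 95% interval 1.27 to 2.92, adjusted p = 0.0371), a 4.26-fold higher level and the largest change in this fit among the 23 genes tested. Without the replicate 2 control, which had the lowest value, the log2 fold change was 1.73 (adjusted p = 0.00026), while the adjusted p was 0.0872 without shControl replicate 1 and 0.170 to 0.222 without 1 of the shPUS1 libraries.

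SLC1A5 (ENSG00000105281, chr19:46774883-46788594, minus strand) had 64.43, 60.22 and 63.21 FPKM in shPUS1 and 62.48, 52.34 and 65.93 FPKM in shControl. The groups lay within each other, with a log2 fold change of 0.08 and a 95% interval of -0.19 to 0.35 (edgeR adjusted p = 0.686). Its relative SLC1A4, which exchanges alanine, serine and cysteine, had 2.33, 1.88 and 2.07 FPKM against 1.64, 1.01 and 2.09 FPKM. The other glutamate carrier of the expressed set, SLC1A1, had 1.59, 0.99 and 1.40 FPKM against 2.16, 0.92 and 1.63 FPKM. Both overlapped between the groups, with log2 fold changes of 0.44 (SE 0.26) and -0.21 (SE 0.34). SLC1A7, a glutamate carrier of the retina, was tested at 4 to 24 counts per library and 0.04 to 0.27 FPKM, and its log2 fold change of 0.36 had a 95% interval from -1.05 to 1.77.

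SLC3A2, the heavy chain also called CD98, was at 19.13, 19.07 and 18.40 FPKM in shPUS1 and at 20.64, 24.62 and 19.39 FPKM in shControl. The 3 control libraries were above the shPUS1 libraries in FPKM, but not in CPM scaled by TMM, where they overlapped. The log2 fold change of -0.17 had a 95% interval of -0.50 to 0.15 (edgeR adjusted p = 0.455). SLC3A1, the other heavy chain, known from kidney and intestine, had 15.0 counts in all 6 libraries together and was not tested.

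Among the light chains that pair with SLC3A2, SLC7A5 took a smaller share and SLC7A6 and SLC7A11 a larger share in the shPUS1 libraries, and none of them passed the edgeR test on its own. SLC7A5, the leucine and tryptophan exchanger LAT1, had 51.01, 47.30 and 42.50 FPKM in shPUS1 and 44.56, 75.80 and 61.30 FPKM in shControl. The groups overlapped because of the first control library. SLC7A6, which exchanges arginine for neutral amino acids, had 10.82, 12.13 and 9.62 FPKM against 4.79, 7.10 and 7.57 FPKM. SLC7A11, the cystine and glutamate exchanger xCT, had 14.47, 17.04 and 13.73 FPKM against 8.02, 9.07 and 12.49 FPKM. Neither of these 2 overlapped between the groups. SLC7A7, a relative of SLC7A6, stayed at 0.57, 0.68 and 0.59 FPKM against 0.58, 0.25 and 0.47 FPKM, apart in CPM scaled by TMM but not in FPKM.

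The edgeR log2 fold changes were -0.35 for SLC7A5 (SE 0.21, adjusted p = 0.317), 0.76 for SLC7A6 (SE 0.19, adjusted p = 0.0724), 0.64 for SLC7A11 (SE 0.18, adjusted p = 0.0887) and 0.54 for SLC7A7 (SE 0.34, adjusted p = 0.347). DESeq2 gave SLC7A6 an adjusted p of 0.00966 and SLC7A11 one of 0.0209, and edgeR without shControl replicate 2 gave 0.0159 and 0.0464. In SLC7A6, 55.56% of exonic bases lie in exons on the opposite strand, mainly those of SLC7A6OS. Reads of that gene cannot be told from those of SLC7A6 if strand was not used in counting, which is not stated, and SLC7A6OS itself, at 10.74, 10.06 and 11.5 FPKM against 9.85, 9.66 and 8.6 FPKM, had a log2 fold change of 0.22 (edgeR adjusted p = 0.315).

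As a share of the light chain FPKM, SLC7A5 made up 66.3, 61.3 and 64.0% in shPUS1 and 76.9, 82.2 and 74.9% in shControl. SLC7A6 made up 14.1, 15.7 and 14.5% against 8.27, 7.70 and 9.25%, and SLC7A11 18.8, 22.1 and 20.7% against 13.8, 9.84 and 15.3%. All 3 shares were apart between the groups, on means of 63.9 ± 2.52% and 78.0 ± 3.77% for SLC7A5 (SD, n = 3), and were not tested since the genes were seen to differ first. The ratio of the summed light chains to SLC3A2 did not separate the groups. It was 4.02, 4.05 and 3.61 in shPUS1 and 2.81, 3.75 and 4.22 in shControl, a difference in means of 0.301 (exact two-sided permutation p = 0.7, where 0.1 is the smallest p that 3 libraries against 3 allow).

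**Figure D3:**
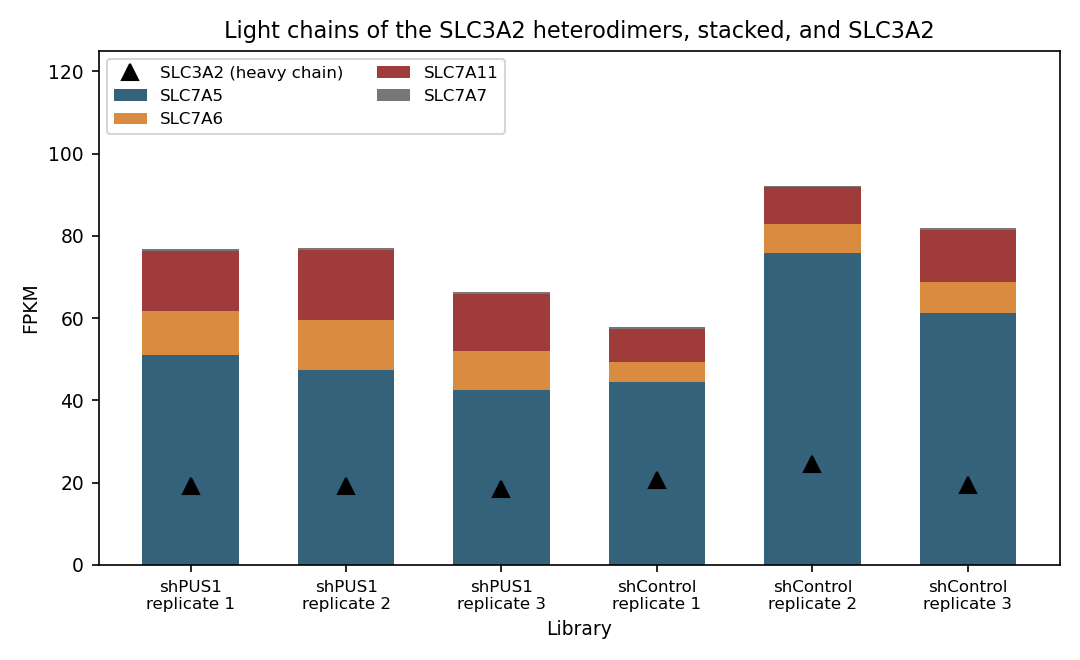
Level in FPKM of the light chains SLC7A5, SLC7A6, SLC7A11 and SLC7A7, stacked in 1 bar per library, with the level of the heavy chain SLC3A2 as a triangle in the same units. The SLC7A5 part of the bar is 61.3 to 66.3% in the shPUS1 libraries and 74.9 to 82.2% in the shControl libraries, and the triangle stays between 18.40 and 24.62 FPKM.

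The cationic amino acid carriers of SLC7 gave no call in edgeR or DESeq2. SLC7A1, the main arginine and lysine carrier of most cells, had 38.70, 38.88 and 33.61 FPKM in shPUS1 and 23.14, 35.94 and 33.75 FPKM in shControl. Its log2 fold change was 0.28 (SE 0.19, edgeR adjusted p = 0.370). An alternative fit, limma voom with sample weights, called SLC7A1 higher, with a log2 fold change of 0.52 (adjusted p = 0.01998). SLC7A2, an arginine carrier known from liver and macrophages, had 4.45, 4.76 and 3.65 FPKM against 4.41, 5.77 and 6.97 FPKM, with a log2 fold change of -0.39 (SE 0.19, edgeR adjusted p = 0.246). The ranges overlapped for both. Of the 13 genes of the family, 6 were tested and edgeR called 0, with 2 higher at an unadjusted p under 0.05 (12.63% of all genes) and 2 called higher by DESeq2 (7.3% of all genes). SLC7A4, SLC7A8, SLC7A9 and SLC7A14 had between 2 and 13 counts over all libraries and, like SLC7A3, SLC7A10 and SLC7A13 without a count, were not tested.

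In SLC36, SLC36A4 rose, a carrier with high affinity for proline and tryptophan. SLC36A4 (ENSG00000180773, chr11:93144174-93197991, minus strand) had 10.94, 12.62 and 11.88 FPKM in shPUS1 and 7.12, 6.75 and 7.85 FPKM in shControl. The groups did not overlap, and the control values were close to each other. The edgeR log2 fold change was 0.73 (SE 0.12, 95% interval 0.46 to 1.00, adjusted p = 0.0336), or 1.66-fold. The adjusted p was 0.00418 without shControl replicate 2, 0.0906 without shControl replicate 1 and up to 0.227 without 1 of the shPUS1 libraries, while the log2 fold change stayed between 0.69 and 0.77. SLC36A1, which exports small amino acids from lysosomes, had 2.87, 2.61 and 2.32 FPKM against 1.6, 2.78 and 1.86 FPKM. It overlapped through the replicate 2 control, with a log2 fold change of 0.33 (edgeR adjusted p = 0.412) that was 0.63 without that library (adjusted p = 0.0188). SLC36A3 had 2 counts in all and SLC36A2 none.

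In SLC38, SLC38A4 rose from a low level. SLC38A4, a sodium-coupled carrier of neutral amino acids known from liver, had 1.98, 2.71 and 2.10 FPKM in shPUS1 and 0.69, 1.11 and 0.75 FPKM in shControl, on 150, 206 and 149 counts against 43, 90 and 44. The groups did not overlap. Its edgeR log2 fold change was 1.42 (SE 0.27, 95% interval 0.80 to 2.05, adjusted p = 0.04455), or 2.68-fold, with an adjusted p of 0.00213 without shControl replicate 2, 0.0612 without shControl replicate 3 and up to 0.252 without 1 of the other libraries. SLC38A1, the abundant glutamine carrier SNAT1, had 50.52, 54.52 and 46.26 FPKM against 31.48, 31.65 and 41.24 FPKM. All shPUS1 libraries were above all controls. Its log2 fold change of 0.56 (SE 0.14) missed the edgeR threshold at an adjusted p of 0.0683 and passed it in DESeq2 at 0.0104 and in edgeR without shControl replicate 2 at 0.0259. SLC38A1 and SLC38A4 both lie on the minus strand of chromosome 12, at chr12:46183063-46270017 and chr12:46764761-46832408 in the table.

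The lysosomal and less studied SLC38 members were at 0.75 to 5.85 FPKM, and none passed edgeR. SLC38A9, which senses lysosomal arginine for mTORC1, had 1.5, 1.19 and 1.48 FPKM in shPUS1 and 1.87, 1.77 and 1.79 FPKM in shControl. SLC38A6 had 0.95, 0.75 and 0.99 FPKM against 1.55, 1.46 and 1.16 FPKM. The groups were apart for these 2, both lower in shPUS1, with log2 fold changes of -0.36 (edgeR adjusted p = 0.2215) and -0.61 (edgeR adjusted p = 0.152). SLC38A7, a lysosomal glutamine exporter, had 1.39, 1.49 and 1.46 FPKM against 0.86, 1.88 and 0.79 FPKM. Its replicate 2 control was the highest of the 6 libraries, and the log2 fold change of 0.30 (edgeR adjusted p = 0.614) was 0.85 without it (adjusted p = 0.00834). SLC38A10 had 3.73, 4.31 and 3.70 FPKM against 4.13, 5.85 and 4.51 FPKM, with overlap and a log2 fold change of -0.29 (edgeR adjusted p = 0.342). SLC38A5 had 2 counts in all, and SLC38A3, SLC38A8 and SLC38A11 none.

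In SLC43, all 3 fitted log2 fold changes were negative, that of SLC43A1 changing sign when some single libraries were left out, and edgeR called 0 of 3, with 1 lower at an unadjusted p under 0.05 (12.85% of all genes) and by DESeq2 (5.58% of all genes). SLC43A2, the leucine and phenylalanine carrier LAT4, had 0.24, 0.36 and 0.27 FPKM in shPUS1 and 0.57, 0.74 and 0.64 FPKM in shControl, on 46 to 70 and 90 to 153 counts. The groups did not overlap, and its log2 fold change of -1.14 (SE 0.25) had an adjusted p of 0.0575 in edgeR, 0.00527 in DESeq2 and 0.0186 in edgeR without shControl replicate 2. SLC43A1, its relative LAT3, had 3.36, 2.85 and 2.34 FPKM against 3.18, 1.79 and 3.98 FPKM, with overlap and a log2 fold change of -0.03 (SE 0.29). SLC43A3 had 40.82, 41.89 and 39.46 FPKM against 43.34, 84.84 and 50.55 FPKM. The shPUS1 libraries were close to each other and below all controls, but the replicate 2 control was far above the other two. The log2 fold change of -0.54 (edgeR adjusted p = 0.2295) was -0.16 without that library (adjusted p = 0.259). In SLC43A3, 29.86% of exonic bases lie in exons of AP000781.2 on the same strand, and how shared reads were assigned is not stated.

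**Figure D4:**
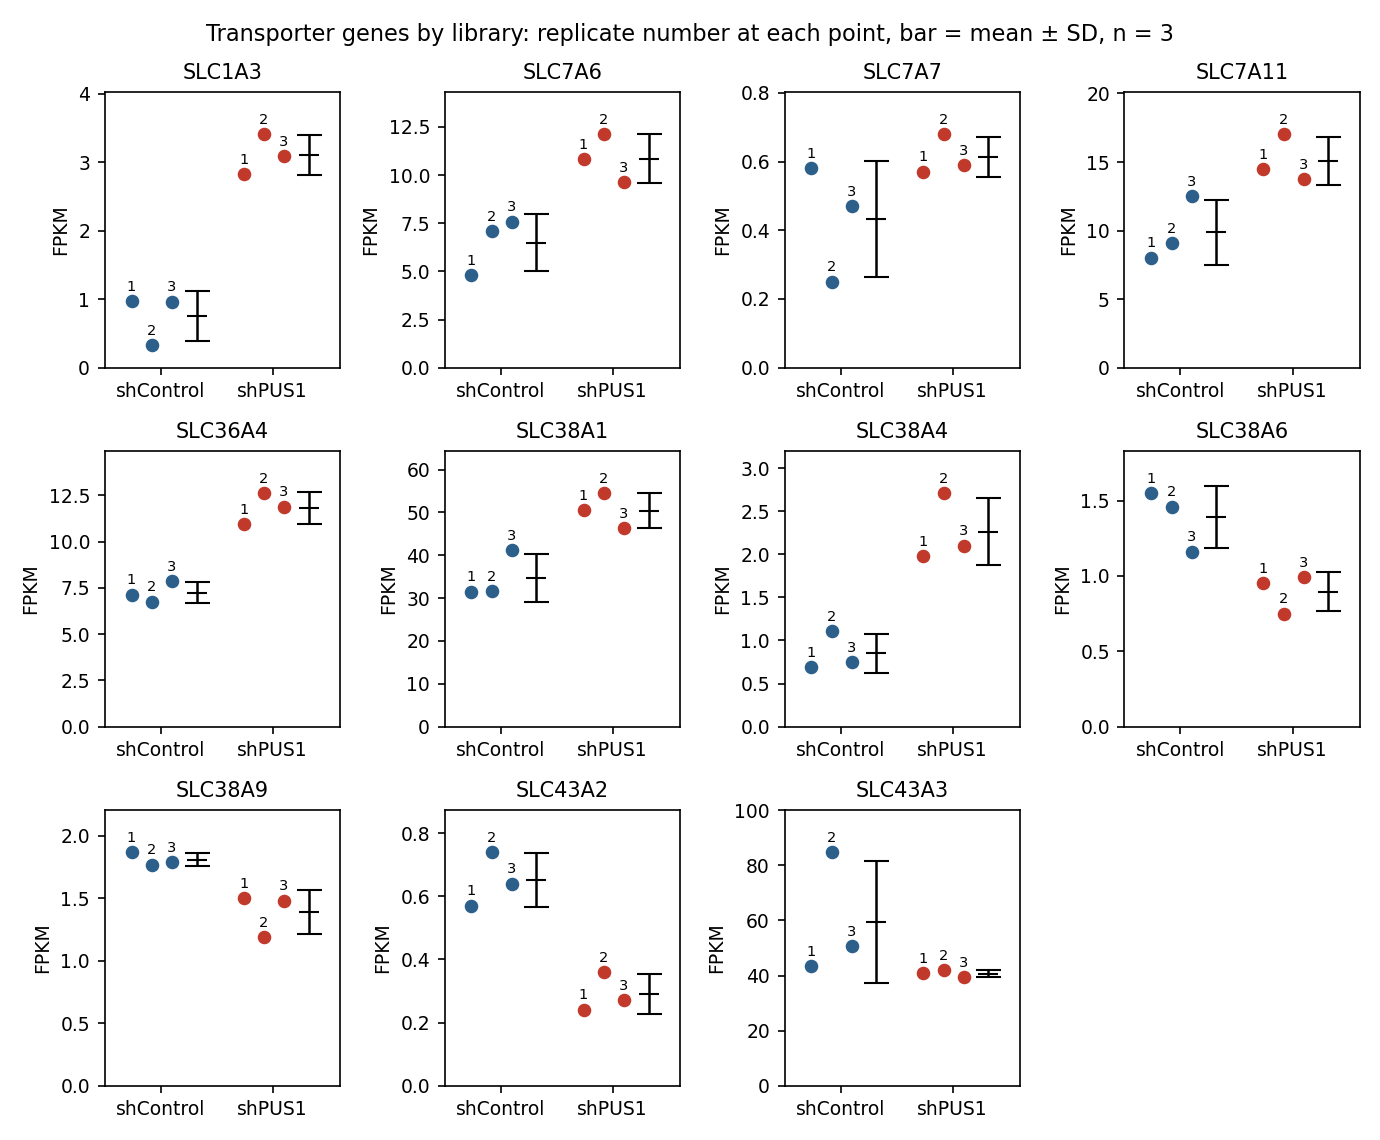
Level in FPKM of the 11 transporter genes whose groups did not overlap in CPM scaled by TMM, with 1 point per library numbered by replicate and the mean ± SD (n = 3) as a bar to the right of the points, each panel on its own axis from 0. The first 7 panels, SLC1A3 to SLC38A4, were higher in shPUS1, with SLC7A7 overlapping in FPKM, the last 4, SLC38A6, SLC38A9, SLC43A2 and SLC43A3, were lower, and the highest SLC43A3 point is the 84.84 FPKM of shControl replicate 2.

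Genes that act with these carriers were read from 3 lists. Their counts stand beside the shares of all genes tested, which were 12.63% higher and 12.85% lower at an unadjusted p under 0.05, 7.3% and 5.58% in DESeq2 and 1.74% and 0.841% in edgeR, and the median of all genes, -0.03. Of 30 amino acid carriers of other families, 14 were tested and edgeR called 0, with 4 higher and 1 lower at an unadjusted p under 0.05, while DESeq2 called 3 higher, among them the glycine carrier SLC6A9. Their median log2 fold change was 0.15. Of 12 genes for the synthesis of glutathione and the use of cystine, edgeR called 0, with 3 higher and 0 lower at an unadjusted p under 0.05, and DESeq2 called 1 higher, the glutamate-cysteine ligase subunit GCLM. The median was 0.02. The third list held genes in or downstream of amino acid sensing through mTORC1 or GCN2, not sensors alone. Of its 37 tested genes, edgeR called 2 higher and 0 lower, with 9 higher and 4 lower at an unadjusted p under 0.05. DESeq2 called 7 higher and 1 lower, and the median was 0.03. The lower gene was DDIT4, at 27.66, 27.42 and 24.39 FPKM in shPUS1 against 140.64, 39.33 and 128.6 FPKM in shControl. The log2 fold change of DDIT4 was -1.92 (SE 0.40, edgeR adjusted p = 0.0521, DESeq2 adjusted p = 1.7e-05). RRAGC, a Rag GTPase that places mTORC1 on lysosomes, had 11.14, 12.31 and 11.08 FPKM against 8.33, 6.77 and 7.01 FPKM. FNIP1, a partner of folliculin in the same pathway, had 14.65, 17.49 and 13.17 FPKM against 8.17, 6.90 and 10.34 FPKM. Neither overlapped between the groups, and the log2 fold changes were 0.67 (SE 0.13, edgeR adjusted p = 0.0462) and 0.86 (SE 0.17, edgeR adjusted p = 0.0467).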

How the data were processed

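Poly(A) RNA of MDA-MB-231 cells was measured in 3 shPUS1 and 3 shControl libraries. According to the methods and the processing notes, reads were aligned with Hisat2 and quantified with HTSeq 0.6.1, and the genome build, annotation, strandedness and treatment of reads with several matches are not given in the sources used here. The authors deposited estimated counts for each gene, not normalized, and FPKM beside them. Of the counts above 0, 29.76 to 31.79% per library were not whole. No other sample's columns were in the table (0).

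After rounding, low counts were removed by filterByExpr, libraries were scaled with TMM factors, and edgeR 4.0.16 (R 4.3.3) gave quasi-likelihood tests, with Benjamini-Hochberg adjustment over the 14748 genes tested and a threshold of 0.05, on a one-factor design. DESeq2 1.42.0, limma 3.58.1 (voom with sample weights, or log2(FPKM + 1) and log2(FPKM + 0.1)), other scalings, no filter, a replicate block and leaving out each library were alternatives. An exact permutation test (scipy 1.17.1) was used for the single ratio. The fitting was tested on simulated data. Exon overlaps come from GENCODE 29, in which 18 of the 39 genes have the start and end of the deposited table and all 39 overlap it on the same chromosome. Promoters come from RefSeq. Libraries that share a replicate number had residuals correlated at -0.053, -0.026 and -0.19. These residuals are from means of 3 libraries, with shControl replicate 2 apart, so they cannot show whether the numbers pair the libraries. Values per library are given for genes with a mean of at least 1 FPKM, for genes called and for genes whose groups did not overlap at 10 or more counts in 1 library. Genes of the lists are named when edgeR called them, with SLC6A9, GCLM and DDIT4 named after their values were seen. The members and lists were chosen with earlier results of these data known. Proteins were not analysed here. A list of enzymes of amino acid metabolism and 1 exon overlap are not reported here.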

Additional observations from a re-analysis of the deposited data

How the results depend on the processing

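The count of 3 transporters called higher and 0 lower was 3 and 0 with DESeq2 size factors (262 and 122 of all 14748 genes) and without TMM (164 and 132). It was also 3 and 0 with limma on log2(FPKM + 1) (198 and 147 of all genes) or log2(FPKM + 0.1) (157 and 112). It was 6 and 1 with DESeq2 (978 and 747 of all 13390 genes) and 6 and 1 with no filter on low counts (756 and 528 of 27010). It was 9 and 1 with voom and sample weights (1692 and 1398 of 14748). With a replicate block it was 0 and 0, where 18 genes in all were called higher and 0 lower (256 and 124 without the block). In the block fit 6 transporters were higher and 1 lower at an unadjusted p under 0.05, and the share of all genes at that p was not counted. Leaving out 1 library gave 0 to 8 called higher and 0 to 1 lower. Of all genes called, 67.4% were higher with TMM, 55.4% without TMM, 58.9% with no filter, 56.7% with DESeq2, 54.8% with voom and 57.4 and 58.4% with limma on FPKM. Genes with a mean of at least 5 FPKM numbered 10, and those of at least 0.5 FPKM 21. The difference in the light chain ratio was 0.2997 on counts scaled by TMM per kilobase and -0.091 to 0.615 without 1 library. Of 322 log2 fold changes under an alternative, 276 kept direction and side of the threshold, 16 lost the threshold, 23 passed it and 7 changed sign. All 16 losses were in SLC1A3, SLC36A4 and SLC38A4, the only genes past the threshold in the main fit. With 1 library left out, SLC1A3 and SLC36A4 stayed past it in 2 of 6 fits each and SLC38A4 in 1 of 6. The 276 include SLC1A7 in DESeq2, which gave that gene no adjusted p. The sign changed for SLC1A7 with voom (-0.0356), for SLC43A1 with the block (0.0162), and without 1 library, where SLC1A7 had -0.14 to 0.867, SLC43A1 -0.28 to 0.21 and SLC1A1 -0.48 to 0.087. On log2(FPKM + 1), which understates changes of low genes, SLC1A3 had 1.25 and SLC38A4 0.82. The cause of the other differences was not tested. Depth limits the 16 transporters that were not tested, with 0 to 23 counts over all libraries.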
